A study of Mus musculus with 22 samples.

Results

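Cytochrome P450 genes were described in whole lungs of newborn mice that had breathed room air or hyperoxia (air enriched in oxygen). The genes were chosen by name alone, as every gene of the deposited table whose symbol is Cyp followed by a family number, a subfamily letter and a member number. Of 91 such symbols, 5 are not described here, which left 86 genes of the 22520 in the table. A level of at least 1 in at least 2 libraries was reached by 24 of the 86, and the results below are about these 24. Levels are FPKM, read fragments scaled to transcript length and library size, so they can be compared between genes as well as between libraries.

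The 22 libraries were made from polyA RNA of flash-frozen lung at postnatal day (PND) 7 or 21. The 8 groups were males in room air at PND7 (Male_RA_PND7, 2 libraries), males in hyperoxia at PND7 (Male_HO_PND7, 3), females in room air at PND7 (Female_RA_PND7, 3) and females in hyperoxia at PND7 (Female_HO_PND7, 2), and the same 4 groups at PND21 with 3 libraries each. The labels used here give no strain, oxygen concentration or length of exposure. They do not say that the libraries came from separate animals, so p-values measure the spread between these libraries, which may be technical.

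Cytochrome P450s are heme enzymes that insert 1 atom of oxygen into their substrates. Most sit in the endoplasmic reticulum and take electrons from the reductase Por, while a few mitochondrial members (here Cyp11a1 and Cyp27a1) take them from ferredoxin, encoded by Fdx1. Families 2 and 3 mostly oxidise drugs and other foreign compounds, family 4 mostly fatty acids and eicosanoids, and the higher-numbered families mostly sterols, bile acids, steroid hormones and vitamins. In the lung, P450 activity is known chiefly from club cells of the airway lining and alveolar type 2 cells.

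Some libraries held transcripts of other tissues. In 6 libraries, Mylpf of fast skeletal muscle was at 74.2 to 772 FPKM and Krt13 of squamous epithelium at 140 to 1534 FPKM. At PND7 these libraries are from both oxygen conditions, but at PND21 from room air only. They are Female_RA_PND21 replicate 1, Male_RA_PND21 replicate 1, Male_HO_PND7 replicate 1, Female_HO_PND7 replicate 2, and replicate 2 of both room air groups at PND7. Adipoq, secreted by fat cells, was at 39.2 FPKM in Male_HO_PND21 replicate 1 and 30.2 in Female_HO_PND21 replicate 2. Both are hyperoxia libraries, so at PND21 these other tissues were unevenly spread over the oxygen conditions. In Female_RA_PND7 replicate 3 and Male_HO_PND7 replicate 1, the flavin monooxygenase Fmo2 was at 140 and 131 FPKM, above the 20.4 to 52.4 of the other PND7 libraries. Lung markers were high throughout: surfactant protein gene Sftpc was at 8742 FPKM or more and the club cell gene Scgb1a1 at 7451 or more. In bulk lung, fewer cells of a type and less RNA per cell cannot be told apart.

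The lung held a narrow part of the superfamily. Of the 62 genes that did not reach the level above, 36 stayed under 0.1 FPKM, including 13 at 0 in every library. Family 4 had 8 of its 15 genes above it and family 2 had 8 of 47. None of the 14 neighbouring Cyp2c genes on chromosome 19 passed, and none of the 6 neighbouring Cyp3a genes on chromosome 5. In the Cyp4f cluster on chromosome 17 (chr17:32452723-32947402, mm10), 5 of 7 passed: Cyp4f13, Cyp4f15, Cyp4f16, Cyp4f17 and Cyp4f39. Just outside the threshold was Cyp2ab1, at 1.12 FPKM in 1 library and lower in the rest. Just inside were Cyp2r1, at 1 or more in 2 libraries, both hyperoxia libraries, and Cyp3a13 and Cyp8b1, each in 3. Of these low genes, Cyp3a13 and Cyp8b1 reached 1 only at PND21, and Cyp11a1 (5 libraries) and Cyp46a1 (9 libraries) only at PND7, so the filter admitted them through the age at which they were high. Of the 5 Cyp11a1 libraries, 4 were hyperoxia libraries.

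Cyp4b1 led by a wide margin. This lung P450, known for activating foreign amines and furans, averaged 124 FPKM. It made up 26.9% to 52.9% of the summed level of the 24 genes in a library. The order below it differed with age, so means are given for each age over sexes and oxygen conditions. At PND7 (10 libraries), the epithelial P450 Cyp2s1 followed at 23.2 ± 8.26 FPKM (SD), the orphan enzyme Cyp20a1 at 15.01 ± 1.76, Cyp4f16 at 11.3 ± 0.684 and Cyp4f13 at 9.05 ± 1.22, while Cyp2b10, a target of the xenobiotic receptor CAR, was in place 8 at 6.01 ± 2.19 and Cyp27a1, the sterol 27-hydroxylase, in place 10 at 4.88 ± 0.965. At PND21 (12 libraries), Cyp2b10 was in place 2 at 34.9 ± 8.07 FPKM, before Cyp2s1 at 29.7 ± 5.59, Cyp27a1 at 15.6 ± 1.78, Cyp2d22 at 15.3 ± 0.859 and Cyp20a1 at 14.5 ± 1.22. The last 3 differed by less than their spread. Cyp4f16 and Cyp20a1 were the steadiest genes, with a coefficient of variation over the 22 libraries of 8.12% and 10.02%; for Cyp2b10 it was 73.1%.

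**Figure D1:**
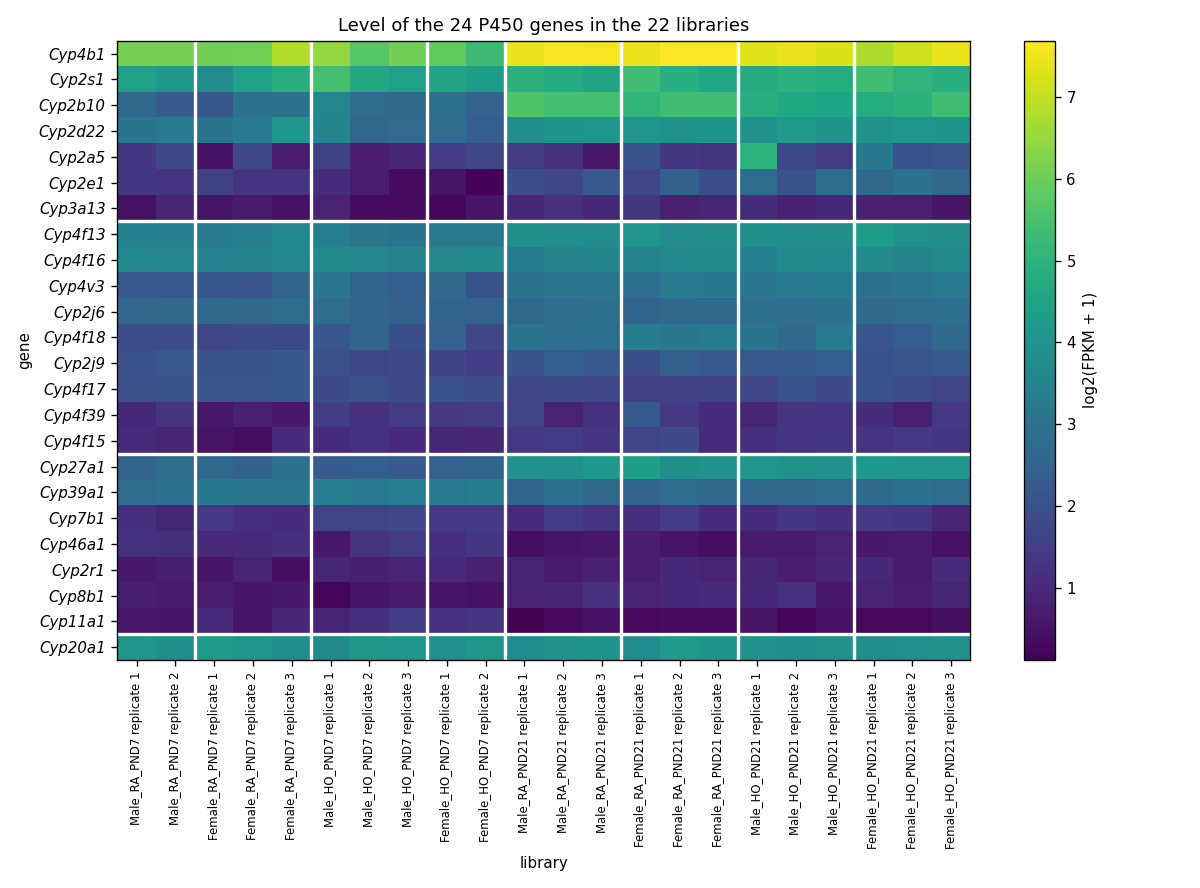
Level of the 24 P450 genes that passed the filter, as log2(FPKM + 1), with 1 column per library and white lines between the 8 groups and between enzymes of foreign compounds, of fatty acids and eicosanoids, of sterols, steroids and vitamin D, and the orphan Cyp20a1. Cyp4b1 is highest in every library, Cyp2b10 and Cyp27a1 are brighter in all PND21 columns, and Cyp2a5 stands out at 31.6 FPKM in Male_HO_PND21 replicate 1.

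Most of the 24 genes differed between the ages. In room air, 13 of the 24 genes were higher at PND21 than at PND7 and 4 were lower (limma on log2(FPKM + 1), adjusted p below 0.05 over 14200 genes); of all genes tested, 23.6% were called higher and 25.8% lower. Cyp3a13, Cyp8b1, Cyp11a1 and Cyp46a1, which the filter admitted through 1 age, were bound to be higher at that age, so their calls support nothing here. Of the other 20 genes, 11 were called higher and 2 lower. With no filter on low values, each of the 4 was called as well. That run uses the same values, so it does not undo how these genes entered and adds no support. All PND21 libraries carry title numbers 3 to 15 and all PND7 libraries 17 to 33, so numbering and age cannot be told apart, also where the ages are compared for oxygen. The median log2 difference of the 24 genes was 0.35, against -0.01 over all genes. The groups did not overlap for 11 of the 24, against 33.4% of all genes. Cyp46a1, Cyp11a1 and Cyp8b1, admitted through 1 age, are among the 11, and the median includes all 4 such genes. Neither value is thus free of the filter. The summed level of the 24 genes was 177 ± 1.59 FPKM (SD, n = 2) in males and 196 ± 40.5 (n = 3) in females at PND7, and 369 ± 8.31 (n = 3) and 381 ± 12.4 (n = 3) at PND21. Because all libraries were set to 1 distribution, this sum is a share of the measured transcripts rather than an amount.

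Among the 7 enzymes of foreign compounds, 6 rose with age and none fell, against 23.6% and 25.8% of all genes. Cyp3a13 is among the 6 and was admitted through its PND21 levels, so its call supports nothing here. Cyp2b10 (chr7:25897620-25926624, mm10) rose most: in room air its PND7 libraries were at 5.25 and 3.94 FPKM in males and 3.59, 6.66 and 6.92 in females, and its PND21 libraries at 48.0, 41.8 and 42.1 in males and 32.8, 40.2 and 40.5 in females. The lowest PND21 library was thus well above the highest PND7 library in both sexes. The log2 difference was 2.79 ± 0.17 (SE; limma adjusted p = 1.29e-09). Cyp4b1 (chr4:115624725-115647723) was at 69.0, 69.3, 66.9, 67.9 and 111 FPKM in the 5 PND7 room air libraries, and at 174 to 205 in the 6 at PND21, a log2 difference of 1.35 ± 0.16 (limma adjusted p = 1.87e-06). The library at 111 is Female_RA_PND7 replicate 3, which was also the highest PND7 library for Cyp2d22 and Fmo2. Cyp2d22 (log2 difference 0.70), Cyp2e1 (0.65), Cyp2s1 (0.52) and Cyp3a13 (0.40) rose less; the Cyp2s1 call was lost without any 1 of 6 of the 11 libraries (0.37 to 0.65 over the 11), and without the 6 libraries rich in muscle and squamous transcripts it was 0.31 (limma adjusted p = 0.287). The Cyp3a13 call was lost without Female_RA_PND21 replicate 1 (0.31), Male_RA_PND7 replicate 1 (0.28) or Male_RA_PND21 replicate 2 (0.36). Cyp2a5, the coumarin 7-hydroxylase, differed by 0.07 ± 0.49 and did not pass.

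Of the 9 enzymes of fatty acids and eicosanoids, 5 rose and 1 fell, against 23.6% and 25.8% of all genes. Cyp4f18, a leukotriene B4 hydroxylase of myeloid cells, was at 2.30 to 2.80 FPKM in the PND7 room air libraries and at 6.17 to 8.90 at PND21 (log2 difference 1.23 ± 0.14, limma adjusted p = 1.90e-06). Of the 5 tested marker genes of monocytes and macrophages, 3 rose with age in room air and none fell. Their summed level went from 71.3–82.1 FPKM at PND7 to 109–130 at PND21 in room air. Their part in the Cyp4f18 difference was not tested. Cyp4v3, a fatty acid hydroxylase of the endoplasmic reticulum, rose by 0.81 ± 0.13. The genes of the Cyp4f cluster did not move as one: Cyp4f15 (0.64), Cyp4f39 (0.51) and Cyp4f13 (0.44) rose, Cyp4f17 fell by 0.41, and Cyp4f16 differed by -0.05 ± 0.07 and did not pass. The Cyp4f39 call was lost without any 1 of 5 of the 11 libraries (0.34 to 0.63 over the 11) and without the 6 libraries rich in muscle and squamous transcripts (0.33). Cyp4f17 was at 2.99, 3.13, 3.30, 3.40 and 3.57 FPKM in room air at PND7 and at 1.91 to 2.70 at PND21, with no overlap. Reads of near-identical Cyp4f neighbours may be shared between them, so each value is uncertain to that degree.

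Of the 7 enzymes of sterols, steroids and vitamin D, 2 rose and 3 fell, against 23.6% and 25.8% of all genes. Cyp8b1, Cyp46a1 and Cyp11a1 are among these calls and were admitted through 1 age, so they support nothing here. Only Cyp27a1, which rose, and Cyp39a1, which fell, remain. Cyp27a1 (chr1:74713574-74737892), the mitochondrial enzyme that starts the acidic route of bile acid synthesis and makes 27-hydroxycholesterol, was at 4.83, 5.96, 5.33, 4.55 and 6.88 FPKM in room air at PND7 and at 14.3, 14.2, 16.8, 20.01, 13.9 and 14.5 at PND21. No library overlapped, and the log2 difference was 1.36 ± 0.10 (limma adjusted p = 8.92e-09). Cyp46a1, the cholesterol 24-hydroxylase best known from neurons, fell from 1.06–1.36 to 0.313–0.667 FPKM (log2 difference -0.61 ± 0.12). It entered through its PND7 levels alone. With no filter on low values its limma adjusted p was 0.000384, but that run uses the same values and adds no support. Cyp11a1, which cleaves the cholesterol side chain in the first step of steroid synthesis, and Cyp39a1, an oxysterol 7-hydroxylase, fell by 0.40 and 0.31. Without the 6 libraries rich in muscle and squamous transcripts the Cyp39a1 difference was -0.22 (limma adjusted p = 0.0678) and no longer called. Cyp8b1, the sterol 12-hydroxylase, rose by 0.30 ± 0.11 at levels near 1 FPKM, and its call was lost without any 1 of 7 of the 11 libraries (0.25 to 0.34 over the 11) and without the 6 libraries rich in muscle and squamous transcripts (0.34). Cyp7b1, the oxysterol 7-hydroxylase of the acidic route, and Cyp2r1, the vitamin D 25-hydroxylase, did not pass.

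**Figure D2:**
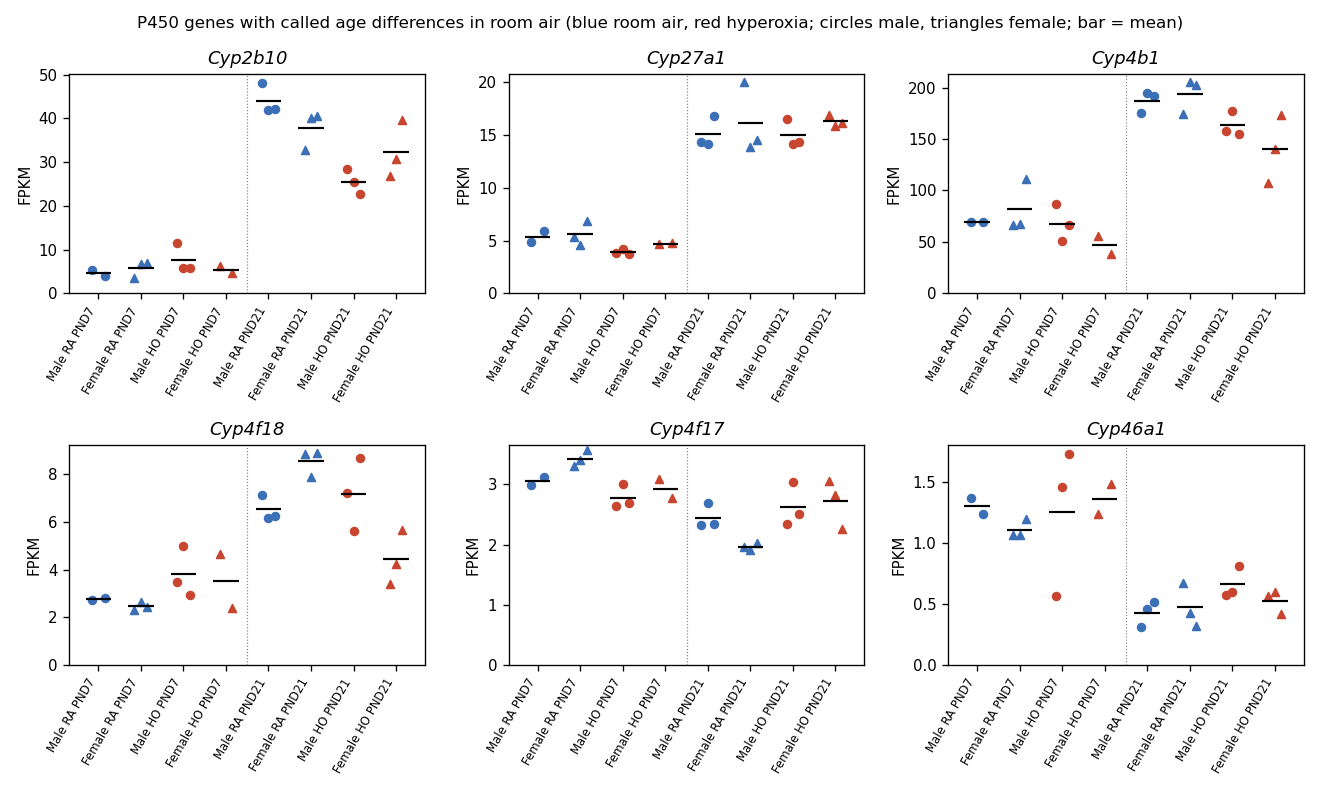
FPKM of 6 P450 genes called between ages in room air, with 1 point per library, groups along the horizontal axis, PND7 left and PND21 right of the dotted line, and bars at group means. Cyp2b10, Cyp27a1, Cyp4b1 and Cyp4f18 are higher at PND21 in room air in both sexes, and Cyp4f17 and Cyp46a1 are lower.

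The electron supply and the companion enzymes were read from lists of the pathway. Por rose by 0.66 ± 0.08 between PND7 and PND21 in room air (limma adjusted p = 2.30e-06), as 1 of 2 genes of the 6 tested redox partners. Of 5 flavin monooxygenases, which oxidise many of the same foreign compounds, 4 rose, with Fmo2 up by 2.43 ± 0.41 and Fmo1 by 1.04 ± 0.19. Of 16 conjugating enzymes, 9 rose and 1 fell. The epoxide hydrolase Ephx1 rose by 1.15 ± 0.09. Of 7 club cell markers, 3 rose and none fell, and Scgb1a1 was at the highest value of the table, 20504.1 FPKM, in every PND21 library. Alveolar type 1 markers were called higher in 5 of 6, type 2 markers higher in 3 and lower in 1 of 6, pan-endothelial markers higher in 1 of 6, and smooth muscle and fibroblast markers lower in 4 and higher in 1 of 6. Summed over the list in room air, type 1 markers were at 1405 to 1547 FPKM at PND7 and 2160 to 2651 at PND21. Smooth muscle and fibroblast markers were at 785 to 1057 FPKM at PND7 and 422 to 580 at PND21. Their part in the P450 differences was not tested.

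At PND7, hyperoxia went with differences in both directions. Over both sexes, 3 of the 24 genes were called higher than in room air (Cyp39a1, Cyp7b1 and Cyp11a1) and 3 lower (Cyp2e1, Cyp2j9 and Cyp2d22); 9.79% of all genes tested were called higher and 13.6% lower. The 3 higher genes are placed with the 7 enzymes of sterols, steroids and vitamin D, of which none was called lower. Cyp11a1 passed the filter mostly through hyperoxia libraries, so its count supports nothing here. Without it and the other 3 genes admitted through 1 age, 2 of 20 were called higher and 3 lower. Cyp2r1, which passed the filter through hyperoxia libraries only, is among the 20 and was not called. These counts are near the shares of all genes. They are not read as a result about P450 genes or about this group of enzymes. Of the same 7 enzymes, Cyp27a1 was at 4.55 to 6.88 FPKM in room air and 3.70 to 4.77 in hyperoxia, and Cyp8b1 differed by -0.19 ± 0.12. The Cyp27a1 difference was -0.28 ± 0.10 (limma adjusted p = 0.0587) and was called with a pseudocount of 0.1 and without Female_RA_PND7 replicate 2 (-0.34, limma adjusted p = 0.0274). The median log2 difference was 0.05 over the 24 genes and -0.01 over all genes. The 24 include Cyp11a1 and Cyp2r1, so this median is not free of the filter. For 4 of the 24, the 5 hyperoxia and 5 room air libraries did not overlap, against 17.8% of all genes. At this age the hyperoxia libraries carry title numbers 26 to 33 and the room air libraries 17 to 23, so numbering and oxygen cannot be told apart.

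Cyp2e1 (chr7:140763739-140774987), the ethanol-inducible P450 that also produces reactive oxygen, fell most. It was at 1.54 and 1.46 FPKM in males and 2.06, 1.39 and 1.42 in females in room air. In hyperoxia it was at 1.17, 0.643 and 0.290 in males and 0.435 and 0.139 in females. The highest hyperoxia library lay below the lowest room air library, and the means were 0.536 ± 0.401 FPKM in hyperoxia and 1.57 ± 0.277 in room air (SD, n = 5 each). The log2 difference on the log2(FPKM + 1) scale, which understates changes of such low genes, was -0.81 ± 0.18 (limma adjusted p = 0.00476), and every alternative run kept this call. Cyp2j9 (chr4:96568429-96591578), which oxidises arachidonic acid, was at 3.08 and 3.66 FPKM in males and 3.27, 3.18 and 3.64 in females in room air, and at 2.96, 2.40 and 2.54 in males and 2.03 and 1.82 in females in hyperoxia. Again no library overlapped. Its log2 difference was -0.42 ± 0.09 (limma adjusted p = 0.00392) and was called under every alternative run, whereas its neighbour Cyp2j6, a related epoxygenase, differed by -0.10 ± 0.07 and did not pass. The difference between the neighbours was not tested.

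The sequences before the start sites of these 2 genes, and of the 2 genes that rose most with age, are given for orientation, as the 250 bases upstream of the RefSeq start on GRCm38.p6, the patch release of the mm10 build. Capitals mark matches on either strand to any of 5 short motifs. These are GCGTG, the core of the element bound by the aryl hydrocarbon receptor Ahr, the nuclear receptor half-site AGGTCA, the TATAAA of core promoters, the antioxidant response core TGACNNNGC, and the element CCAAT bound by NF-Y. Windows were found for 20 of the 24 genes. The windows are chr7:140763569-140763818 on the plus strand for Cyp2e1, chr4:96591486-96591735 on the minus strand for Cyp2j9, chr7:25897408-25897657 on the plus strand for Cyp2b10 and chr1:74713285-74713534 on the plus strand for Cyp27a1.
Cyp2e1: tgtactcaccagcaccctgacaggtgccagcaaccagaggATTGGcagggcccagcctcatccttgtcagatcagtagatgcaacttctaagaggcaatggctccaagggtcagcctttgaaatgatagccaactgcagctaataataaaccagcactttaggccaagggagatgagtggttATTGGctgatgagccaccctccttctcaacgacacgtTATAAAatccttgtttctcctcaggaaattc
Cyp2j9: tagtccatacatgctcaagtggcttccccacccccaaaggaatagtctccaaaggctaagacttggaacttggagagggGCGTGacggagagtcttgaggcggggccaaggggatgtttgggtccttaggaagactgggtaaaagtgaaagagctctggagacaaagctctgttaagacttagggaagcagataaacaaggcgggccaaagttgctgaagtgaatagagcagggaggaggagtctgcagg
Cyp2b10: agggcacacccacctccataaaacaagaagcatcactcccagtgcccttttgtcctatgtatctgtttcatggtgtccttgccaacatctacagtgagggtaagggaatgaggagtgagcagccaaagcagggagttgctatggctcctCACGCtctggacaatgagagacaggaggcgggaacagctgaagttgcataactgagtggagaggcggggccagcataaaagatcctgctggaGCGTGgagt
Cyp27a1: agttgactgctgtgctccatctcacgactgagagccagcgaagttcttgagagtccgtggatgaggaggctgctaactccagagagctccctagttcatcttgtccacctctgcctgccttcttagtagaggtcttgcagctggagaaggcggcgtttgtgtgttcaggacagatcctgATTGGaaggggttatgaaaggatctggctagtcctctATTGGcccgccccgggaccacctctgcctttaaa
The Cyp2e1 window holds a TATAAA whose first base is at -31 and CCAAT on the opposite strand at -210 and -68. The Cyp2j9 window holds 1 GCGTG, at -171, and the Cyp2b10 window holds 2, at -101 on the opposite strand and at -9. The Cyp27a1 window holds CCAAT on the opposite strand at -71 and -34, and the Cyp4b1 window holds none of the 5 motifs. GCGTG was in 7 of the 21 windows of these genes (Cyp11a1 has 2 windows) and in 28.2% of all 32851 windows, TATAAA in 3 and 12.4%, CCAAT in 11 and 33.8%, AGGTCA in 1 and 14.02%, and TGACNNNGC in 2 and 10.2%. A match describes the letters and says nothing about binding.

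Cyp2d22 (chr15:82370527-82380260), related to the human drug-metabolising enzyme of subfamily 2D, was at 7.31, 8.70, 7.21, 8.41 and 16.0 FPKM in room air at PND7 and at 11.03, 5.44, 5.77, 5.91 and 4.19 in hyperoxia. The groups overlapped through Female_RA_PND7 replicate 3 at 16.0 and Male_HO_PND7 replicate 1 at 11.03. The log2 difference was -0.51 ± 0.18 (limma adjusted p = 0.0477), and 9 of 19 alternatives kept the call. Leaving out 1 library gave -0.66 to -0.35 and lost the call for Male_RA_PND7 replicates 1 and 2, Female_RA_PND7 replicate 3, Male_HO_PND7 replicates 2 and 3 and Female_HO_PND7 replicate 2. Cyp4b1 was lower in 4 of 5 hyperoxia libraries than in all room air libraries, by -0.41 ± 0.16, which did not pass (limma adjusted p = 0.0761). Without the 2 libraries with Fmo2 above 100 FPKM, an alternative added after the data were seen, 7 genes were called at PND7 in place of 6, with Cyp4b1 among them. Of all genes, 21.3% were called in that fit, in place of 23.4%.

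Of the 3 genes that rose, Cyp39a1 (chr17:43667425-43751431) was at 5.93 and 6.41 FPKM in males and 7.998, 7.73 and 7.82 in females in room air, and at 9.23, 8.42 and 9.29 in males and 8.39 and 8.74 in females in hyperoxia. All 5 hyperoxia libraries lay above all 5 room air libraries, and the log2 difference was 0.29 ± 0.07 (limma adjusted p = 0.00776). Cyp7b1 (chr3:18071950-18243338) was at 1.20, 0.904, 1.60, 1.18 and 1.18 FPKM in room air and at 2.20, 2.16, 2.31, 1.67 and 1.67 in hyperoxia, again without overlap (log2 difference 0.43 ± 0.11, limma adjusted p = 0.0117). Without the 6 libraries rich in muscle and squamous transcripts the differences were 0.29 for Cyp39a1 (limma adjusted p = 0.0735) and 0.36 for Cyp7b1 (limma adjusted p = 0.136), no longer called with fewer libraries. The Cyp7b1 call was lost also without Male_RA_PND7 replicate 2 alone (0.38, limma adjusted p = 0.0635). Cyp11a1 (chr9:58006411-58027023) was at 0.527, 0.498, 1.02, 0.458 and 0.905 FPKM in room air and at 0.881, 1.22, 1.71, 1.28 and 1.44 in hyperoxia, with some overlap (log2 difference 0.49 ± 0.12, limma adjusted p = 0.00972, and 0.00541 with no filter on low values). The run with no filter uses the same values, so it does not undo the entry of Cyp11a1 mostly through hyperoxia libraries. Of the adrenal cortex markers, Hsd3b1 was at 0 in all 22 libraries. The summed level of the 4 markers was 0.981 to 1.51 FPKM in room air and 1.06 to 1.39 in hyperoxia at PND7.

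**Figure D3:**
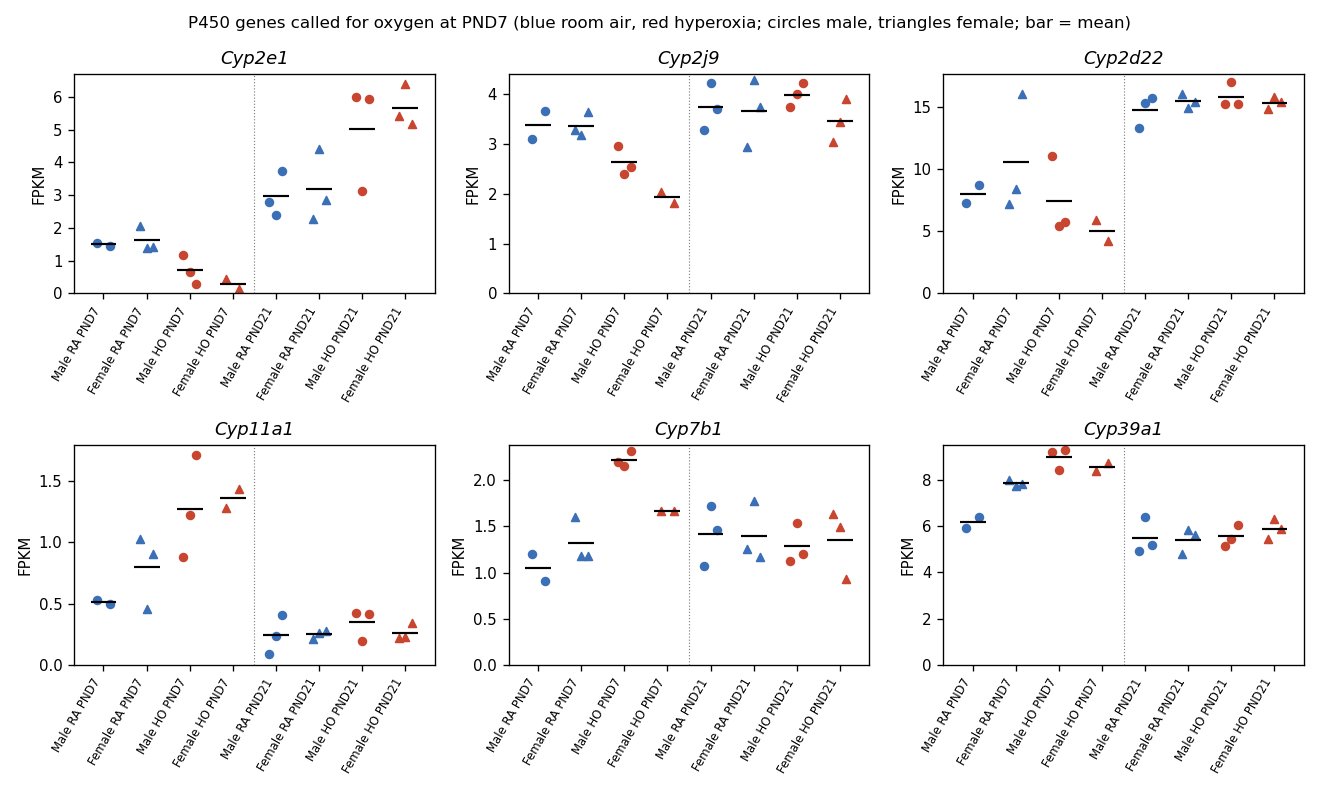
FPKM of the 6 P450 genes called for oxygen at PND7 over both sexes, with 1 point per library, groups along the horizontal axis and bars at group means. At PND7 the hyperoxia points lie below all room air points for Cyp2e1 and Cyp2j9 and above them for Cyp7b1 and Cyp39a1, while at PND21 the conditions overlap for all 6 with the sexes pooled.

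Within 1 sex the same genes reached the threshold only in part. In males, Cyp39a1 (log2 difference 0.48 ± 0.10) and Cyp7b1 (0.66 ± 0.16) were called higher and none lower, against 3.37% and 5.37% of all genes. In females, Cyp2j9 (-0.57 ± 0.13) and Cyp2e1 (-1.03 ± 0.26) were called lower and none higher, against 3.95% and 1.86% of all genes. Leaving out 1 library at a time gave 0.43 to 0.52 for Cyp39a1 and 0.55 to 0.76 for Cyp7b1 in males. In females it gave -0.63 to -0.52 for Cyp2j9 and -1.19 to -0.86 for Cyp2e1. Each of these calls was lost in some of these fits. No share of all genes is given for them, so the lost calls are no result about the P450 genes. The lists called in males and in females do not show a difference between the sexes. The direct test of such a difference, sex by oxygen, called none of the 24 genes by limma (0% of all genes). At an unadjusted p below 0.05 it held 2 of the 24. Averaged over all conditions, no P450 gene differed between females and males by that test (0 of 24 also at an unadjusted p below 0.05; 0.0563% of all genes called), with differences from -0.13 to 0.11.

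Genes that surround the P450s moved at PND7 as follows. Ahr, the receptor of aromatic foreign compounds that acts on many P450 promoters, was at 25.9 to 32.9 FPKM in room air and 13.2 to 19.9 in hyperoxia (log2 difference -0.66 ± 0.12, limma adjusted p = 0.00118), and its partner Arnt fell by 0.28. In all, 4 of the 15 tested nuclear receptors and Ahr partners fell and none rose. Fmo1 was at 92.2 to 195 FPKM in room air and at 34.4 to 91.2 in hyperoxia, a log2 difference of -1.15 ± 0.20, and 3 of 5 flavin monooxygenases fell. Por (-0.06 ± 0.08) and Fdx1 (0.07 ± 0.10) did not pass. Tbxas1, the P450 that makes thromboxane, rose by 0.69 ± 0.13, beside monocyte and macrophage markers of which 5 of 5 rose (summed level 71.3–82.1 FPKM in room air, 132–221 in hyperoxia). Scgb3a2, 1 of 2 club cell markers of 7 that rose, was at 222 to 758 FPKM in room air and 655 to 1393 in hyperoxia. Pan-endothelial markers fell in 3 of 6 (summed level 731 to 902 FPKM in room air, 556 to 675 in hyperoxia), and smooth muscle and fibroblast markers in 2 of 6 (785 to 1057 and 626 to 1022), with none of either higher. Alveolar type 1 and type 2 markers each rose in 1 of 6 and fell in none. Their part in the P450 differences was not tested.

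At PND21, no P450 gene was called for oxygen over both sexes by limma (0 of 24; 6 of 24 at an unadjusted p below 0.05), where 0.282% of all genes were called. No gene was called within males (0.0211% of all genes; 3 of 24 at an unadjusted p below 0.05) or females (0.0634%; 4 of 24), none by sex by oxygen (0.0141%; 1 of 24), and with the sexes pooled the oxygen conditions overlapped for all 24 (1.22% of all genes had no overlap). Within 1 sex they did not overlap for Cyp2b10 and Cyp46a1 in males, nor for Cyp2e1, Cyp2j6, Cyp4b1, Cyp4f17 and Cyp4f18 in females. The share of all genes without overlap within 1 sex was not worked out. With 3 libraries per group this list is therefore no result about these genes. The gene nearest the threshold was Cyp2e1, here with the opposite sign. In room air it was at 2.80, 2.39 and 3.72 FPKM in males and 2.26, 4.40 and 2.87 in females, and in hyperoxia at 5.99, 3.13 and 5.95 in males and 5.41, 6.40 and 5.16 in females. Only the male hyperoxia library at 3.13 fell within the room air range. The log2 difference was 0.64 ± 0.16 (limma adjusted p = 0.110). The 2 libraries with Adipoq above 20 FPKM held Cyp2e1 at 5.99 and 6.40, and without them, in an alternative added after the data were seen, the difference was 0.53 (limma adjusted p = 0.363).

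Other enzymes of foreign compounds or fatty acids had large but uncalled differences at PND21. Cyp2b10 was at 32.8 to 48.0 FPKM in room air and 22.8 to 39.5 in hyperoxia (log2 difference -0.50 ± 0.16, limma adjusted p = 0.218). Cyp4b1 was at 174 to 205 FPKM in room air and 108 to 177 in hyperoxia (-0.34 ± 0.15, limma adjusted p = 0.374). With limma's library quality weights, which count libraries far from their group for less, Cyp2b10, Cyp4b1 and Cyp4f17 were called at PND21 over both sexes, and so was Cyp2e1; that fit called 18.01% of all genes in this comparison. Cyp4f18 in females was at 8.87, 7.89 and 8.90 FPKM in room air and at 3.41, 4.24 and 5.66 in hyperoxia (-0.83 ± 0.19, limma adjusted p = 0.168). In males it was at 7.15, 6.17 and 6.26 against 7.22, 5.62 and 8.68. Summed monocyte and macrophage markers in females were at 109 to 130 FPKM in room air and 132 to 152 in hyperoxia. In males they were at 110 to 120 and 127 to 157. Their part in the Cyp4f18 differences was not tested. Cyp2a5 was at 31.6 FPKM in Male_HO_PND21 replicate 1 and 8.03 in Female_HO_PND21 replicate 1, with every other library of the series at 3.46 or less (1.28 ± 0.46, limma adjusted p = 0.265). Its near-identical neighbour Cyp2a4 had its highest value, 0.910 FPKM, in that same male library, and reads of the pair may be divided between them. The male library is also rich in Adipoq. Female_HO_PND21 replicate 1 had Mylpf at 17.7 and Krt13 at 35.9 FPKM, the highest of the PND21 hyperoxia libraries. The part of other tissues in the Cyp2a5 difference was not tested.

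**Figure D4:**
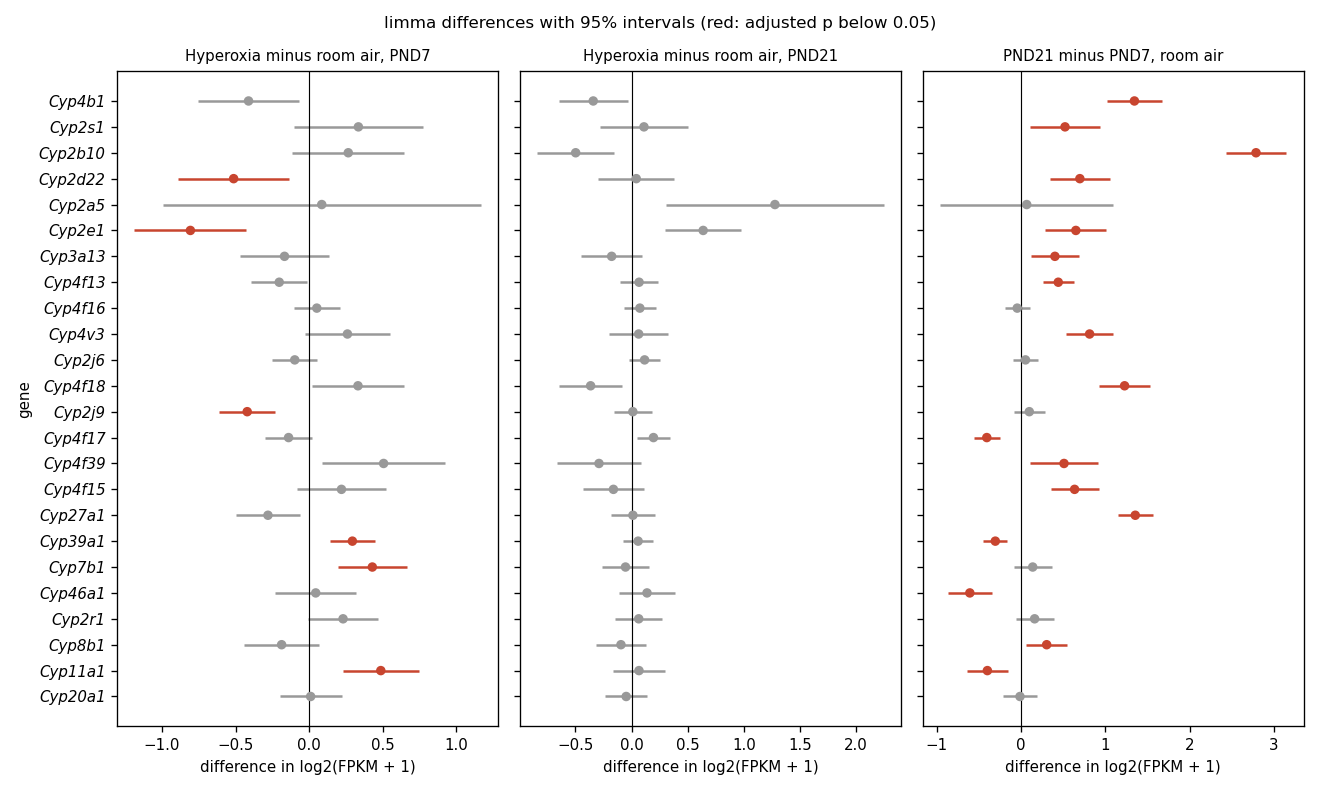
Differences in log2(FPKM + 1) of the 24 P450 genes for hyperoxia minus room air at PND7 and at PND21 and for PND21 minus PND7 in room air, over both sexes, as points with 95% intervals from limma, red where the adjusted p is below 0.05. The horizontal scales differ between panels; 6 genes are red in the first, none in the second and 17 in the third.

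The difference between the 2 ages in the response to oxygen was tested directly. The difference was higher at PND21 than at PND7 for 3 genes and lower for 2, against 7.08% and 3.46% of all genes. For Cyp2e1 it was 1.45 ± 0.24 (limma adjusted p = 0.00179), from lower in hyperoxia at PND7 to a higher but uncalled value at PND21, and every alternative run kept it. Cyp2j9 (0.43 ± 0.12) and Cyp4f17 (0.33 ± 0.10) had the same sign, and Cyp4f18 (-0.70 ± 0.20) and Cyp7b1 (-0.48 ± 0.15) the opposite; of 31 alternatives, 20, 9, 19 and 10 kept these 4 calls in that order. Of 22 fits that left out 1 library, 12 kept the Cyp2j9 call, 4 that of Cyp4f17, 13 that of Cyp4f18 and 6 that of Cyp7b1.

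A few P450 genes differed between the libraries rich in muscle and squamous transcripts and the rest. In each of the 6 libraries rich in muscle and squamous transcripts, Cyp4f39, a fatty acid hydroxylase of the skin, and Cyp2a5 were above, and Cyp8b1 below, the other libraries of the same group, and Cyp3a13 was above them in 5 of 6. The largest log2 differences from the rest of the group were 1.03 for Cyp4f39 and 1.13 for Cyp2a5. Without these libraries, Cyp2e1, Cyp2j9 and Cyp11a1 were the 3 genes called at PND7, where 11.9% of all genes were called in place of 23.4%. Cyp11a1 passed the filter mostly through hyperoxia libraries, so its call supports nothing here. The differences of the other 3 genes called with all libraries were 0.29 for Cyp39a1, 0.36 for Cyp7b1 and -0.55 for Cyp2d22. With all libraries they were 0.29, 0.43 and -0.51. For age in room air, 13 of 24 genes were called without them, where 43.1% of all genes were, and Cyp39a1, Cyp4f39, Cyp2s1 and Cyp8b1 no longer passed. Cyp3a13, Cyp46a1 and Cyp11a1, which the filter admitted through 1 age, are among the 13, so this count is not free of the filter. Hepatocyte markers were low, with Alb at 22.03 FPKM at most.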

How the data were processed

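The authors deposited 1 table of FPKM values for 22520 genes in 22 libraries, quantile normalized per its name. Per the submitters' processing notes, TopHat2 2.0, Cufflinks 2.0 and mm10 were used. The library sums (529406 to 533090) and the shared highest value, 20504.1, come with that normalization, which leaves no depth; the sequencing depth is not known, so no counting interval can be given. Values were tested as log2(FPKM + 1) with limma 3.58.1 (R 4.3.3; 1 mean per group over all 8 groups, a mean-dependent prior variance, Benjamini-Hochberg adjustment over the 14200 genes at 1 or more in at least 2 libraries). The fit was checked on simulated data. Errors of log2 differences are standard errors. Alternatives changed the pseudocount, filter, prior, library weights and libraries. The genes and lists were chosen with earlier results of these data known. Every P450 gene past the filter could be named, with values by library for those called for oxygen and the 8 of highest mean. Gene coordinates and windows come from RefSeq and GENCODE M21.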

Additional observations from a re-analysis of the deposited data

Results flagged for a closer look

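For 5 of the 24 P450 genes, the hyperoxia minus room air difference itself differed between PND21 and PND7 (limma interaction, adjusted p below 0.05). Of all genes tested, 10.5% were called in this comparison. Only the Cyp2e1 call was kept under every alternative run. On the log2(FPKM + 1) scale the PND21 difference minus the PND7 difference was 1.45 for Cyp2e1, 0.43 for Cyp2j9, 0.33 for Cyp4f17, -0.70 for Cyp4f18 and -0.48 for Cyp7b1. Groups of 2 or 3 libraries are too small for a test of single outlying libraries.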

How the results depend on the processing

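Of 32 called pairs of a gene and a comparison, 16 kept the call under every alternative run, 16 lost it under at least 1, and 0 changed direction. Among the 16 kept are Cyp11a1 for age and for oxygen at PND7, and Cyp46a1 for age. Cyp3a13 and Cyp8b1 for age are among the 16 that lost it. The filter admitted these genes through groups where they were high, so their calls support nothing here. Where called, they also enter the counts below, which are thus not free of the filter. Shares of all genes called by the same fit stand in brackets. With library quality weights, 10 P450 genes were called for oxygen at PND7 over both sexes (35.7%; 6 in the fit reported), 11 in males there (38.96%), 4 at PND21 over both sexes (18.01%), 1 in PND21 males (2.18%), 7 in PND21 females (28.2%), 1 for sex by oxygen at PND21 (6.56%) and 11 for day by oxygen (27.95%). Without the 6 muscle-rich libraries, 3 were called at PND7 (11.9%), 0 in PND7 males (1.99%), 0 in PND7 females (3.61%) and 1 for day by oxygen (4.91%). Without a filter on low values, 4 of 73 P450 genes with any value were called in PND7 males (5.70%), Cyp39a1, Cyp7b1, Cyp11a1 and Cyp2c29, the last outside the 24 genes, and 3 for day by oxygen (6.85%). In alternatives added after the data were seen, 4 were called in PND7 males without the 2 libraries high in Fmo2 (12.01%), and 2 for day by oxygen without the 2 adipose-rich libraries (9.56%). Leaving out each library in turn gave 0 to 1 genes called at PND21 over both sexes. No share of all genes is given for the runs that left out 1 library, so this range is no result about the P450 genes. Without Male_HO_PND21 replicate 2, Cyp2e1 was the 1 gene called at PND21. Where a group was left with 1 library, that library is assumed to vary like the other groups. No paired analysis was possible because the labels give no shared replicate numbers. The groups hold 2 or 3 libraries and depth is unknown, which limits what small differences can be told.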

Other observations

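In Female_RA_PND7 replicate 3 and Male_HO_PND7 replicate 1, both at PND7, several P450 genes that rise with age were higher than in the other libraries of their group. Cyp4b1 was at 111 and 86.9 FPKM in these libraries, Cyp2s1 at 28.9 and 43.1, Cyp2b10 at 6.92 and 11.4, and Cyp2d22 at 16.0 and 11.03. Fmo2 was at 140 and 131 FPKM there, and the club cell gene Scgb1a1 at 20504.1 and 16401 FPKM, above the 7451 to 12420 of the other PND7 libraries. Cyp27a1, which also rises with age, was at 6.88 FPKM in the first and at 3.86 in the second, within the 3.70 to 4.23 of its group. This pattern was seen after the values were known and was not tested.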
